A study of Mus musculus with 10 samples.

Results

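Ribosomal proteins are the protein parts of the ribosome, which assembles from a small subunit that reads the mRNA and a large subunit that joins the amino acids. Their genes are expressed in nearly every cell, their mRNAs are short and abundant, and most of these mRNAs begin with a run of pyrimidines, the 5′ terminal oligopyrimidine (TOP) tract, through which mTORC1 signalling sets their translation. Embryonic stem cells (ESCs) divide quickly and carry large amounts of these mRNAs.

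The members were all genes whose only symbol on a probe set of the array began with Rpl or Rps and a number, together with Rplp0, Rplp1, Rplp2 and Rpsa where measured, leaving out kinases (Rps6k), Rps19bp1 and symbols containing -ps. The rule found 105 probe sets of 49 genes among 18193 genes named by a probe set with 1 symbol. Each gene was described by its brightest probe set, 26 genes of the large and 23 of the small subunit. Of 88 protein-coding symbols in RefSeq that meet the rule, 48 were measured in this way. A further 31, among them Rpl3, Rpl5, Rpl23, Rpl24, Rpl26 and Rplp1, were found only on probe sets with several symbols, from which no gene is named, and the others were not analysed here. Rps4l is the member without a protein-coding RefSeq symbol.

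The cells were CJ9, a mouse ESC line derived from the 129SvJ strain, infected with lentivirus. The control cells carried the Empty Vector, and the others an shRNA against 1 of 2 cohesin genes, with 2 shRNAs for each. Wapal (symbol Wapl) opens cohesin and takes it off DNA, and Smc3 is part of the ring itself. All cells, controls included, received polybrene at 10 µg/mL during 48 h of infection, then LIF and puromycin at 4 µg/mL, and were cultured for 48 h post infection. Each of the 5 groups had 2 replicates, each on 1 Affymetrix Mouse Genome 430 2.0 array. The paper calls the replicates biological, but neither it nor the labels say whether they came from separate infections. The p-values thus measure the spread between these samples, which may not include that between infections.

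The targeted transcripts fell as labelled. The Wapl intensity was 2500.05 and 2648 in Empty Vector, 929 and 1005 in the Wapal shRNA1 arrays, and 235 and 217 in those of Wapal shRNA2, and the Smc3 intensity was 1536 and 1555 in Empty Vector and 176 to 223 over the 4 Smc3-depleted arrays. The groups are thus knockdowns, with 37.5% and 8.78% of the Wapl signal and 11.7% and 13.3% of the Smc3 signal left. The 10 ESC markers listed, such as Pou5f1 and Sox2, all lay above a mean log2 intensity of 6, whereas 9 of 10 fibroblast markers lay below it, Thy1 being the exception. The summed intensity of the fibroblast markers was 373 to 412 in Empty Vector and 314 to 356 over the shRNA arrays. That of the ESC markers ranged from 59252 in a Smc3 shRNA2 array to 73745 in a Wapal shRNA2 array. With Wapal depletion 1 ESC marker rose and 2 fell (30% of 10), and 1 fibroblast marker rose and 1 fell (20% of 10). With Smc3 depletion 4 ESC markers fell (40%), and 2 fibroblast markers rose and 1 fell (30%). Of all probe sets, 5.91% passed the limma threshold used below with Wapal depletion and 7.62% with Smc3 depletion. The part of cell composition in the results was not tested, and in bulk RNA fewer cells of a type and less RNA per cell cannot be told apart.

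Values are intensities after robust multi-array averaging (RMA), given here as intensity or as its log2. RMA brings arrays to a common distribution, so each value is relative to the other probe sets of its array. The brightness of a probe set depends on its probes as well as on the RNA, so brightness is used here to describe probe sets, and the order of brightness is not an order of transcript amounts between genes.

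Most members sat at the top of the array. The mean log2 intensity of 38 members, 19 of each subunit, lay between 12.97 (Rps4l) and 14.49 (Rpl37a), at or above 99.3% of all probe sets, and these are called bright members here. Among the 100 brightest probe sets of the array, 36 belonged to members and 41 more carried several symbols with a ribosomal protein among them. The 3 brightest members were Rpl37a, Rpl41 and Rps29, all encoding very small proteins, with lowest and highest intensities over the 10 arrays of 22514 and 23454 for Rpl37a, 21755 and 23484 for Rpl41, and 21719 and 22500 for Rps29. The highest value of any probe set in an array was between 24686 and 25268, so these members lay close to the upper end of the scale. Whether intensity still follows the amount of RNA there was not tested, and a change hidden by saturation of these probe sets cannot be told apart from no change. The 23 other probe sets with a mean log2 of at least 14 had changes between -0.13 and 0.12 in the 3 main comparisons described below.

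The other 11 members had mean log2 intensities from 2.91 to 10.88, with no member between 10.88 and 12.97. Rps16 at 2.91 and Rpl3l at 4.29 were below a log2 of 6, as were 59.9% of all probe sets, and Rpl39 followed at 6.27. For Rps16 and Rpl39 the probe sets with a single symbol thus gave little signal, and nothing is concluded here about the amount of their mRNAs. Rps27 (7.09), Rpl14 (9.17), Rpl12 (10.23) and Rps25 (10.71) were also each read by 1 probe set below the bright members. Changes given for these genes below are those of that probe set. Whether it follows the main mRNA of the gene was not tested. Rpl3l, the relative of Rpl3 known from skeletal muscle and heart, was the second dimmest member.

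The bright members hardly varied between arrays. For 28 of the 38, the highest of the 10 intensities was less than 1.1 times the lowest. Rpl6, a large-subunit protein, showed the narrowest spread, between 14734 and 15092, a ratio of 1.02. Rpl22l1, the paralog of Rpl22, showed the widest among the bright members, between 7054 and 8930, a ratio of 1.27. The median absolute log2 difference between replicates was 0.017 to 0.027 for bright members in the 5 groups, against 0.115 to 0.142 for all probe sets and 0.040 to 0.068 for the 642 other probe sets of at least the same brightness limit, a log2 of 12. The range of the 5 group means had a median of 0.07 on the log2 scale among bright members and of 0.47 among the other 11. Most bright members were read by probe sets whose names carry _a_, _s_ or _x_, while of the other 11 only Rpl37 was. Brightness and this type of probe set thus largely went together. Their separate parts in this contrast were not tested.

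**Figure D1:**
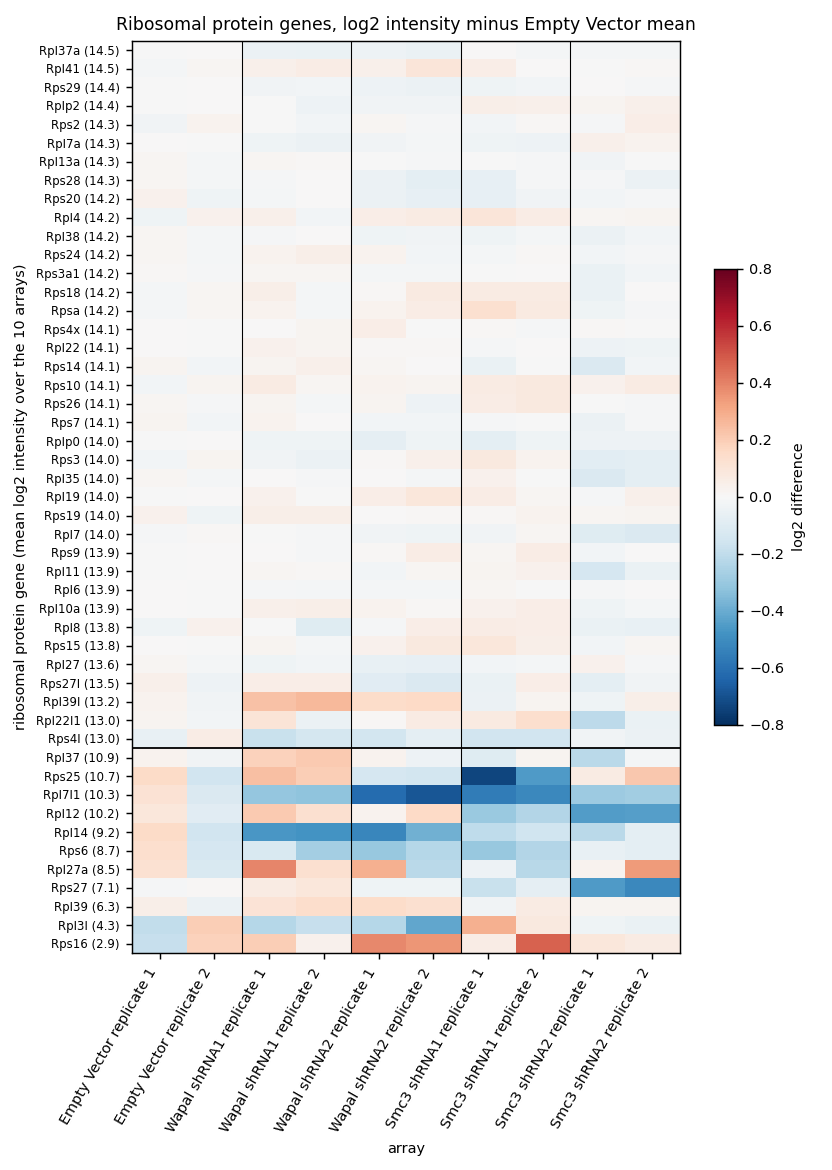
Log2 intensity of the 49 ribosomal protein genes (rows, ordered by mean log2 intensity, given in parentheses) in each of the 10 arrays (columns), minus the mean of the 2 Empty Vector arrays; the colour scale runs from -0.8 to 0.8. The 38 bright members above the black line are nearly white throughout, while the 11 below it carry the visible differences.

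The region around the annotated start of transcription is shown for the 6 members that passed the test in any comparison below and for Rpl38 and Rplp2, a pair of bright members with the pyrimidine-rich start typical of the family. Each line gives 10 bases before and 20 bases from the start onwards, 5′ to 3′ on the strand of the gene, from RefSeq (GRCm38.p6), with the longest unbroken run of C and T in capitals.
Rpl7l1 (chr17:46782637-46782666, minus strand): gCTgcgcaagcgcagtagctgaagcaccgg
Rpl12 (chr2:32961702-32961731, plus strand): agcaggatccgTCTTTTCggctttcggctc
Rps27 (chr3:90213629-90213658, minus strand): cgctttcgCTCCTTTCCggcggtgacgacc
Rps25 (chr9:44407704-44407733, plus strand): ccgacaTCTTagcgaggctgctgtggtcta
Rpl14 (chr9:120571507-120571536, plus strand): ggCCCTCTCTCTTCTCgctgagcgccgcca
Rpl3l (chr17:24727816-24727845, plus strand): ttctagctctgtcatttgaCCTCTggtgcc
Rpl38 (chr11:114668570-114668599, plus strand): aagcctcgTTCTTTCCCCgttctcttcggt
Rplp2 (chr7:141447641-141447670, plus strand): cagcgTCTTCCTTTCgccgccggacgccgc

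The run was 14 bases long in Rpl14, 10 in Rpl38 and Rplp2, 9 in Rps27 and 7 in Rpl12, but 5 in Rpl3l, 4 in Rps25 and 2 in Rpl7l1. RefSeq held the start region of 43 of the 49 members, with 51 starts in all, and Rpl3l had 2 starts, of which the upstream one is shown. In the 20 bases before and 30 after the start, 23 of the 51 member starts (45.1%) held a run of at least 8 pyrimidines, against 19.0% of all 32851 starts in the table, and the letters CTTTC on the strand of the gene were found in 14 (27.5%) against 6.57%. In the 300 bases of each start region, searched on both strands, CGGAAG, the core of Ets-type sites such as those of GABP, was found in 31 of 51 (60.8%) against 16.9% of all starts. ATGGCG, the core of YY1-type sites, was found in 16 (31.4%) against 8.93%, and TATAAA, the TATA box, in 6 (11.8%) against 13.6%. A match of ATGGCG can share its last letters with a match of CGGAAG. Of the 8 members shown, CGGAAG was present for Rpl12, Rps27, Rps25, Rpl38 and Rplp2, ATGGCG for Rpl7l1, Rps27, Rps25, Rpl14 and Rpl38, and TATAAA for none. These are matches of letters in a window and describe no binding.

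To ask whether loss of Wapal alters the ribosomal protein genes, the 4 Wapal-depleted arrays were compared with the 2 Empty Vector arrays. Most of the measured changes were small, on probe sets that are mostly near the upper end of the scale. The median log2 change of the 49 members was 0.00, with 26 above and 23 below 0, and over all 45037 probe sets tested it was 0.02. By limma with Benjamini-Hochberg adjustment over all probe sets, no member rose and 1 fell, Rpl7l1, that is 2.04% of members, where 5.91% of all probe sets passed. None of the 38 bright members passed, and also without adjustment none had a p below 0.05. Their changes lay between -0.14 (Rps4l) and 0.20 (Rpl39l), and all of their 95% intervals lay within -0.35 to 0.40. Among the 642 other bright probe sets, 13 (2.02%) passed.

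Rpl7l1, a relative of Rpl7 that is known as a nucleolar factor of large-subunit assembly, fell. Its intensity was 1795 and 1531 in Empty Vector, 1337 and 1328 for Wapal shRNA1, and 1082 and 1033 for Wapal shRNA2. All 4 Wapal-depleted arrays were below both controls. The log2 change was -0.48 ± 0.10 (SE), 1.40-fold lower (adjusted p = 0.0345). With the median of the gene's 3 probe sets in place of the brightest, the change was -0.24 and did not pass (adjusted p = 0.148), nor did it after a further quantile normalization (-0.42, adjusted p = 0.0587). Taken alone, Wapal shRNA2 lowered Rpl7l1 by 1.57-fold (adjusted p = 0.0271), while the change with Wapal shRNA1 was -0.32 ± 0.12 (adjusted p = 0.168). The difference between the 2 shRNAs was 0.33 ± 0.12 and did not pass (adjusted p = 0.205). Without Empty Vector replicate 1 the Wapal change was -0.37 (adjusted p = 0.148), and the call was also lost without any single Wapal array (adjusted p between 0.0883 and 0.106). The call for Wapal shRNA2 was lost without any 1 of the 6 arrays other than Empty Vector replicate 2 (adjusted p between 0.0606 and 0.176).

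The 3 probe sets of Rpl7l1 did not move alike. A dimmer one (mean log2 8.20) read 419 and 384 in Empty Vector and 236 to 282 over the Wapal arrays, a log2 change of -0.65 ± 0.10 (adjusted p = 0.0131). A further one, nearly as bright as the first (mean log2 10.30), read 1432 and 1379 in Empty Vector and 1176 to 1420 over the Wapal arrays, a log2 change of -0.11 ± 0.09 (adjusted p = 0.487). Rpl7, the ribosomal relative, read 16213 and 16401 in Empty Vector and had a log2 change of -0.02 ± 0.09.

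Rpl14, a large-subunit protein, came next. It read 764 and 618 in Empty Vector and 478 to 525 in the 4 Wapal arrays, all of which were below both controls. The log2 change of -0.46 ± 0.11 had an adjusted p of 0.0501, and it passed in 8 of 16 alternative settings. Rpl39l, a paralog of Rpl39 that is best known from testis, was the bright member with the highest change. It read 8922 and 8545 in Empty Vector, 10284 and 10466 for Wapal shRNA1, and 9673 and 9743 for Wapal shRNA2, so that all Wapal arrays were above both controls. The log2 change was 0.20 ± 0.09 (adjusted p = 0.218). With a prior variance that follows intensity in limma, which lets the narrow spread of bright probe sets enter the test, the same change had an adjusted p of 0.00312. Its partner Rpl39 read 76.2 and 71.4 in Empty Vector and 79.5 to 81.8 with Wapal depletion, a log2 change of 0.13 (adjusted p = 0.421).

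**Figure D2:**
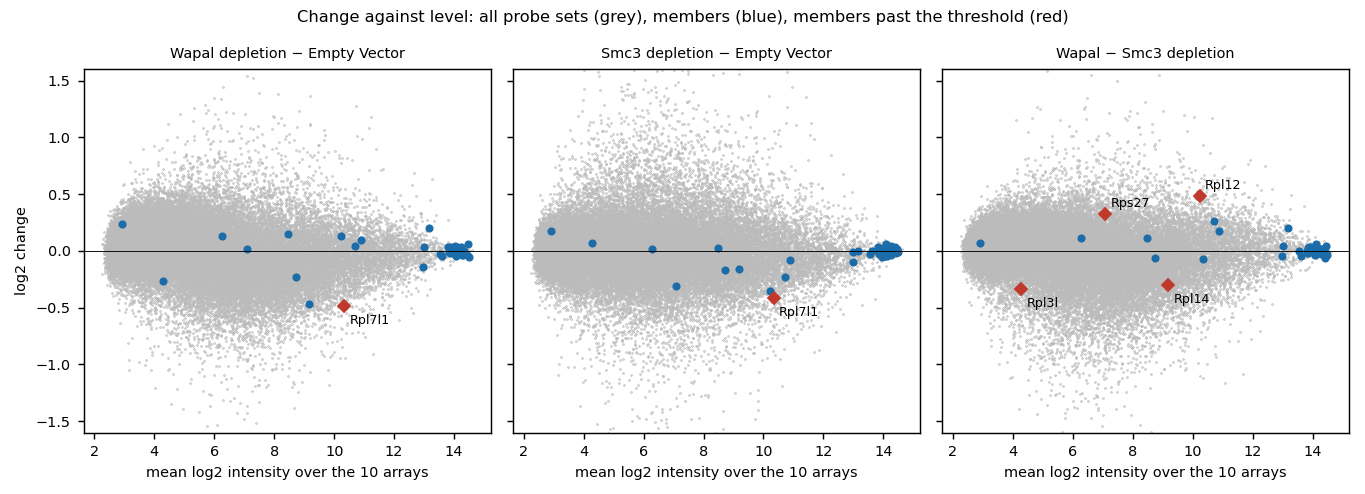
Log2 change (vertical axis) against mean log2 intensity over the 10 arrays (horizontal axis) for the 3 main comparisons, with all 45037 probe sets in grey, ribosomal protein genes in blue and those past the threshold as labelled red diamonds; 17, 62 and 19 probe sets lie beyond the axis limits of 1.6. The bright members form a tight group near 0 at the right edge, and every member past the threshold has a mean log2 below 12.

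Smc3 depletion was set against the same 2 Empty Vector arrays, so the 2 comparisons share their controls and are given side by side. The median log2 change of the members was -0.01, with 20 above and 29 below 0, and over all probe sets it was 0.00. No member rose and 1 fell, again Rpl7l1, where 7.62% of all probe sets passed. None of the 38 bright members passed, none had an unadjusted p below 0.05, and their changes lay between -0.09 (Rps4l) and 0.06 (Rps10), with 95% intervals within -0.30 to 0.26. Of the other bright probe sets, 23 of 642 (3.58%) passed.

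Rpl7l1 read 1124 and 1159 for Smc3 shRNA1, with 1353 and 1367 for Smc3 shRNA2, all below the 1531 and 1795 of Empty Vector. The log2 change was -0.41 ± 0.10, 1.33-fold lower (adjusted p = 0.0410), and -0.28 with the median of the 3 probe sets, which did not pass (adjusted p = 0.0949). Smc3 shRNA1 alone gave 1.45-fold lower (adjusted p = 0.0239), and Smc3 shRNA2 gave -0.29 ± 0.11 (adjusted p = 0.187). The dimmer probe set changed by -0.46 ± 0.10 (adjusted p = 0.0276). Leaving out Empty Vector replicate 1 took away the call, at a change of -0.30 (adjusted p = 0.217), as did leaving out any single Smc3 array (adjusted p between 0.103 and 0.118). The call for Smc3 shRNA1 was lost without any 1 of the 6 arrays other than Empty Vector replicate 2 (adjusted p between 0.0545 and 0.148).

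Rpl12, a large-subunit protein near the stalk, read 1359 and 1197 in Empty Vector, 1039 and 1082 for Smc3 shRNA1, and 935.7 and 939.7 for Smc3 shRNA2. All 4 Smc3 arrays were below both controls, and the log2 change of -0.36 ± 0.09 did not pass (adjusted p = 0.0596). Rps27, a small-subunit protein, read 146 and 148 in Empty Vector, 130.02 and 139.8 for Smc3 shRNA1, and 107 and 103 for Smc3 shRNA2, with a log2 change of -0.30 ± 0.09 (adjusted p = 0.0820). Its paralog Rps27l, known as a p53 target, had a log2 change of -0.03 ± 0.09 on a bright probe set.

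**Figure D3:**
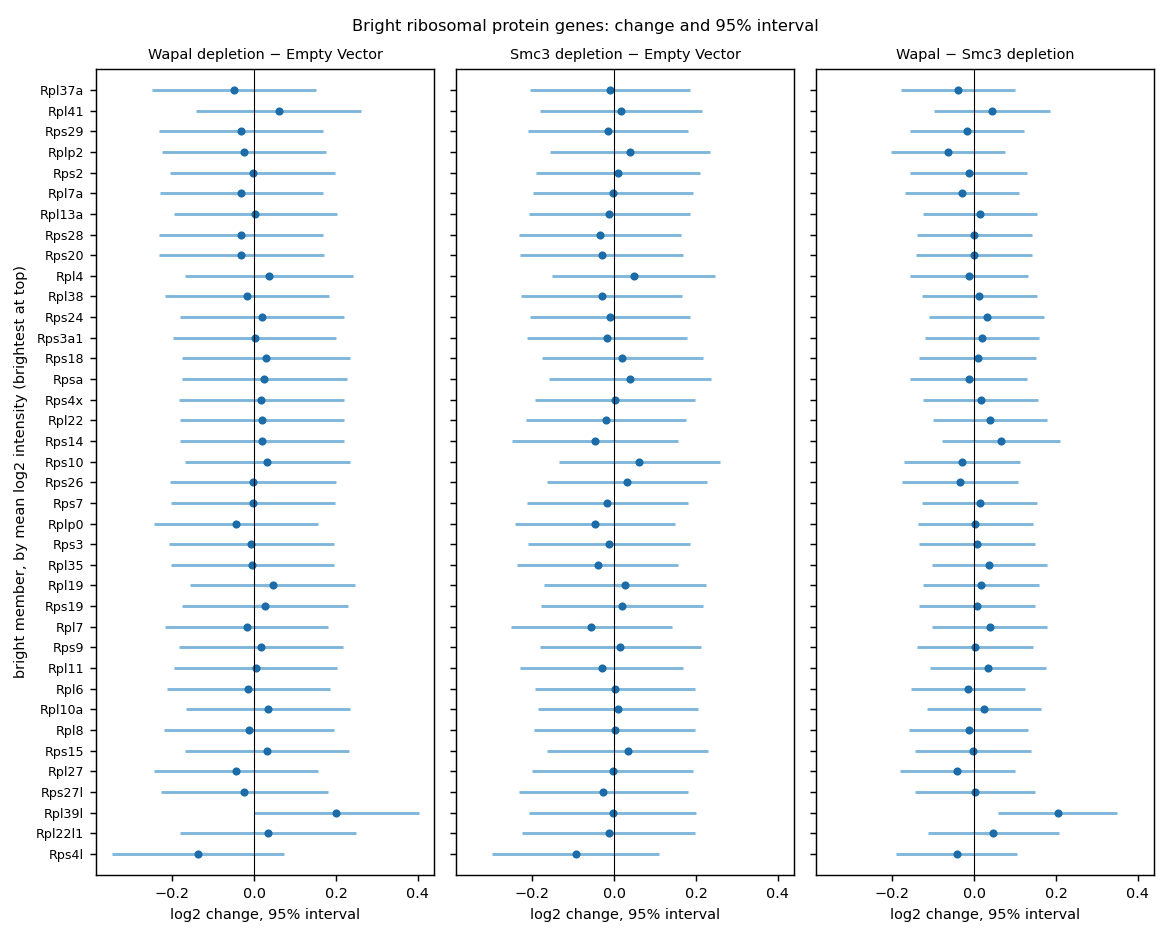
Log2 change (points) and 95% interval from limma (lines) of the 38 bright ribosomal protein genes in the 3 main comparisons, ordered by mean log2 intensity with the brightest at the top. All points lie between -0.14 and 0.20, and Rpl39l in Wapal against Smc3 depletion is the member whose interval lies clear of 0.

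The direct comparison of the depletions used all 10 arrays, with the mean of the 4 Wapal arrays set against the mean of the 4 Smc3 arrays. It gave the most calls, as it did over the array as a whole, where 17.4% of probe sets passed. Among the members 2 were higher and 2 lower with Wapal than with Smc3 depletion, 4 of 49 (8.16%), and all of them were among the 11 that were not bright. The median difference of the members was 0.01, and that of all probe sets 0.03.

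Rpl12 was higher with Wapal than with Smc3 depletion. The Wapal arrays read 1300.1 to 1476 and the Smc3 arrays 935.7 to 1082, so the groups did not overlap, and of the controls 1197 lay between the groups and 1359 within the Wapal range. The difference was 0.49 ± 0.07 on the log2 scale, 1.40-fold (adjusted p = 0.00140), and it passed in all 19 alternative settings run for it (adjusted p up to 0.00854). Rps27 was also higher, at 143 to 156 in Wapal arrays against 103 to 139.8 in Smc3 arrays, with a difference of 0.33 ± 0.07, 1.25-fold (adjusted p = 0.00702). It passed in 18 of 19 settings and missed the threshold (adjusted p = 0.0511) with a term for a split of the arrays, in which Empty Vector replicate 1, Wapal shRNA1 and Smc3 shRNA2 stood on one side.

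Rpl14 was lower with Wapal depletion, at 478 to 525 against 593 to 652, with a difference of -0.30 ± 0.08, 1.23-fold (adjusted p = 0.0320). It kept its direction but missed the threshold without any 1 of the 8 shRNA arrays (adjusted p between 0.051 and 0.107) or after a further quantile normalization (-0.23, adjusted p = 0.102). Rpl3l read 15.4 to 18.1 in Wapal arrays and 19.9 to 25.02 in Smc3 arrays, close to the lower end of the scale, with a difference of -0.33 ± 0.10 (adjusted p = 0.0386). With log2 of the value plus 16 the difference was -0.18 and did not pass (adjusted p = 0.0565), and the call was also lost with the term for the split of the arrays (adjusted p = 0.0552). The 2 controls, at 18.0 and 23.6, spanned most of that range. The call was lost without any 1 of the 8 shRNA arrays except Smc3 shRNA1 replicate 2 (adjusted p between 0.0534 and 0.133).

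None of the 38 bright members passed in this comparison, where 75 of the 642 other bright probe sets did (11.7%). One bright member, Rpl39l, had an unadjusted p below 0.05. It read 9673 to 10466 in Wapal arrays against 8445 to 9026 in Smc3 arrays, with no overlap, a difference of 0.20 ± 0.07 and an adjusted p of 0.0560. It passed under 3 alternative settings, with log2 of the value plus 16 (adjusted p = 0.00787), with dim probe sets left out (0.0335) and with the intensity trend (0.000101).

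**Figure D4:**
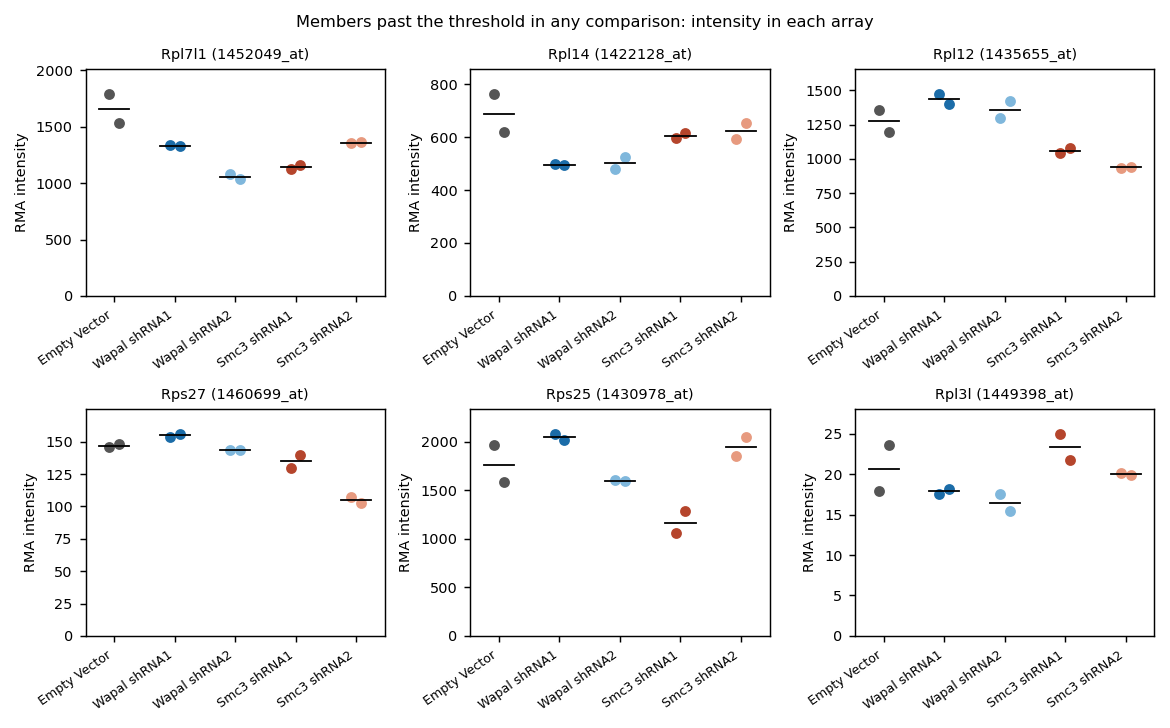
RMA intensity (vertical axis, from 0) in each array for the 6 ribosomal protein genes past the threshold in any comparison, with 2 points per group and a line at their geometric mean. Rpl12 and Rps27 are lowest with Smc3 shRNA2, Rps25 is lowest with Smc3 shRNA1, and Rpl7l1 is below both controls in all 8 shRNA arrays.

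The shRNAs were then taken 1 at a time. With Wapal shRNA1 no member passed, where 4.63% of all probe sets did, and 3 members had an unadjusted p below 0.05. With Wapal shRNA2 the only call was Rpl7l1, where 3.75% of probe sets passed. With Smc3 shRNA1, Rpl7l1 and Rps25 were lower, where 8.69% of probe sets passed, and with Smc3 shRNA2, Rpl12 and Rps27 were lower, where 7.65% did. Rpl12 was 1.36-fold lower with Smc3 shRNA2 (adjusted p = 0.0452) and Rps27 was 1.40-fold lower (adjusted p = 0.0268). Both calls against Empty Vector were lost on leaving out Empty Vector replicate 1 (adjusted p = 0.146 and 0.0597) or any Smc3 array, and that of Rps27 also without Empty Vector replicate 2 (adjusted p = 0.0618).

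Rps25, a small-subunit protein needed for initiation at some viral internal ribosome entry sites, had the widest range of group means of all members, 0.81 on the log2 scale. It read 1964 and 1582 in Empty Vector, 2084 and 2022 for Wapal shRNA1, 1604 and 1594 for Wapal shRNA2, 1058 and 1289 for Smc3 shRNA1, and 1848 and 2046 for Smc3 shRNA2. Only the Smc3 shRNA1 arrays lay below both controls, with a log2 change of -0.59 ± 0.15, 1.51-fold lower (adjusted p = 0.0429). The 2 shRNAs to Smc3 differed from each other by -0.74 ± 0.15 (adjusted p = 0.0178), where 9.89% of all probe sets differed. That difference was lost without Smc3 shRNA1 replicate 1 (-0.59, adjusted p = 0.138) and without either Smc3 shRNA2 array (adjusted p = 0.0867 and 0.127), while the call against Empty Vector was lost without any array other than Empty Vector replicate 2 (adjusted p between 0.0766 and 0.256). The 2 shRNAs to Wapal differed at no member by limma, where 1.11% of probe sets differed and 2 members had an unadjusted p below 0.05, and their largest member difference was that of Rps25, 0.36 ± 0.13 (adjusted p = 0.209). Over the 10 arrays the members most like Rps25 by Pearson correlation of log2 values were Rps20 (0.69), Rpl27a (0.63) and Rps6 (0.56). These are given as a description, since the arrays of a group share their shRNA.

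The 2 Empty Vector arrays differed more at the dimmer members than the arrays of other groups did. The median absolute log2 difference over the 11 members was 0.24 in Empty Vector and 0.03 to 0.10 in the 4 shRNA groups, and each comparison with Empty Vector rests on that pair.

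Among members with known extra roles, Rpl11, which binds Mdm2 when free of the ribosome, read 13736 to 15416 over the 10 arrays. Its log2 changes were 0.00 ± 0.09 with Wapal and -0.03 ± 0.09 with Smc3 depletion. Rps6, the ribosomal substrate of the S6 kinases, read 521 and 431 in Empty Vector and 384 to 455 in the 8 shRNA arrays. Its changes of -0.23 ± 0.11 (adjusted p = 0.255) and -0.17 ± 0.10 (adjusted p = 0.409) did not pass. Rps3, which also acts in DNA repair, had a change of -0.01 ± 0.09 in both depletions, and Rps19, the gene most often mutated in Diamond-Blackfan anaemia, had changes of 0.03 ± 0.09 and 0.02 ± 0.09. The Smc3 values average 2 shRNAs, which for Rps3 and Rpl11 lay on opposite sides of Empty Vector. Mean log2 with Smc3 shRNA1, Smc3 shRNA2 and Empty Vector was 14.10, 13.97 and 14.05 for Rps3 and 13.91, 13.79 and 13.88 for Rpl11. For Rps19 it was 13.97, 13.97 and 13.95. No bright member passed by limma between the shRNAs to Smc3.

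The stalk proteins recruit translation factors. Rplp0 read 16489 to 17400.5 and had changes of -0.04 ± 0.09 and -0.05 ± 0.09 with Wapal and Smc3 depletion, and Rplp2 had changes of -0.03 ± 0.09 and 0.04 ± 0.09. Rpsa, which is also known as the laminin receptor precursor, had changes of 0.02 ± 0.09 and 0.04 ± 0.09. Its mean log2 was 14.24 with Smc3 shRNA1 and 14.12 with Smc3 shRNA2, on either side of 14.14 in Empty Vector. Rpl38, whose loss disturbs axial patterning in mice, had changes of -0.02 ± 0.09 and -0.03 ± 0.09. Those of Rpl10a were 0.03 ± 0.09 and 0.01 ± 0.09, and those of Rps7 0.00 ± 0.09 and -0.02 ± 0.09. The standard errors draw on a variance that limma shares over all probe sets, which is wider than the spread between the replicates of bright members (pooled SD 0.028 on the log2 scale).

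Of the other paralogs, Rps4x, which is X-linked, read 17707 to 18496 with changes of 0.02 ± 0.09 and 0.00 ± 0.09. Rps4l read 8211 and 8926 in Empty Vector, 7579 to 8098 in the Wapal arrays and 7689 to 8403 in the Smc3 arrays, with changes of -0.14 ± 0.09 (adjusted p = 0.411) and -0.09 ± 0.09 (adjusted p = 0.617). Rpl22 had changes of 0.02 ± 0.09 and -0.02 ± 0.09, and its paralog Rpl22l1 of 0.03 ± 0.09 and -0.01 ± 0.09. With Smc3 shRNA2, Rpl22l1 read 7054 and 7849, below its 8577 and 8930 with Smc3 shRNA1, a difference of 0.23 ± 0.11 that did not pass (adjusted p = 0.225).

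Some members had dimmer probe sets that did not follow the brightest one. For Rps20, the brightest probe set had a change of -0.03 ± 0.09 with Wapal depletion. A pair of dim probe sets read 162 and 102, and 132 and 83.9, in Empty Vector, against 77.9 to 82.8 and 56.0 to 69.8 in the Wapal arrays. They fell by 0.68 ± 0.16 (adjusted p = 0.049996) and by 0.75 ± 0.18 (adjusted p = 0.0455) on the log2 scale. For Rps24, which has alternative 3′ exons, a dimmer probe set read 753 and 764 with Smc3 shRNA2, below 928 to 1164 in all other arrays, a log2 change of -0.52 ± 0.11 from Empty Vector (adjusted p = 0.0267). A dimmer probe set of Rpl22 differed between the 2 shRNAs to Smc3 by 0.67 ± 0.11 (adjusted p = 0.00766), at 1192 and 1090 against 733 and 701. Over all 105 probe sets of members, 4 (3.81%) passed with Wapal depletion, 2 (1.90%) with Smc3 depletion and 7 (6.67%) between the depletions, against 5.91%, 7.62% and 17.4% of all probe sets.

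The rest of the translation pathway was described from lists of other genes, each by its brightest probe set, with counts from the same tests. The share of all probe sets that passed was 5.91% with Wapal depletion, 7.62% with Smc3 depletion and 17.4% between the depletions. The medians of the lists are not set against that of the ribosomal protein genes, whose probe sets are mostly near the upper end of the scale. With Wapal depletion, 8 of 48 ribosome biogenesis genes fell and none rose (16.7% against 5.91% of all probe sets), with a median log2 change of -0.26. Among the 8 were Rrp12 (-0.63 ± 0.12, adjusted p = 0.0262), which takes part in subunit export, Rrs1 (-0.55 ± 0.09), which brings the 5S particle into the large subunit, Tcof1 (-0.52 ± 0.11), the gene of Treacher Collins syndrome, and Nop14 (-0.44 ± 0.09), a small-subunit processome factor. With Smc3 depletion 1 of 48 fell, Riok2 (-0.63 ± 0.09, adjusted p = 0.00625), a kinase of late small-subunit maturation, and the median was -0.19. The count of 8 was 3 with the replicate numbers as a block, 1 after a further quantile normalization, and 25 with the intensity trend. Leaving out either control left 1 or 2 genes and leaving out any Wapal array left 0, so the call of single biogenesis genes rested on every array.

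RNA polymerase I, which transcribes ribosomal RNA, showed 2 of 14 genes (14.3%) lower with Wapal depletion, its subunit Polr1e (-0.80 ± 0.10, adjusted p = 0.00691) and the initiation factor subunit Taf1c (-0.79 ± 0.09). With Smc3 depletion 5 of 14 (35.7%) fell, among them Znrd1 (-0.73 ± 0.10, adjusted p = 0.00439), a polymerase subunit, Ubtf (-0.50 ± 0.09), an upstream binding factor, and Rrn3 (-0.46 ± 0.11), an initiation factor. The medians were -0.24 and -0.36. Without 1 array the counts were 2 to 4 with Wapal and 1 to 4 with Smc3 depletion. The 7 chaperones of ribosomal proteins had medians of -0.32 and -0.26, and of these only Pdcd2l with Smc3 depletion passed by limma (-0.44 ± 0.09, adjusted p = 0.0282), while 4 and 5 had an unadjusted p below 0.05.

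Of 16 other genes whose mRNAs carry a TOP tract, among them Eef1a1, Tpt1 and Npm1, none passed by limma with Wapal or Smc3 depletion, with medians of -0.01 and -0.02 and an unadjusted p below 0.05 for 0 and 1 of them. Their mean log2 intensities ran from 11.60 (Hnrnpa1) to 14.51 (Tpt1). Several lay near the upper end of the scale, such as Eef1a1 (14.41) and Npm1 (14.04). A change hidden by saturation there cannot be told apart from no change. Between the depletions 3 of these 16 genes were lower with Wapal, Eif4b (-0.38 ± 0.07, adjusted p = 0.00484), Eef2 (-0.28 ± 0.08) and Eif3f (-0.23 ± 0.07). Among 8 non-coding host genes of snoRNAs, Snhg3 (-0.73 ± 0.13, adjusted p = 0.0129) and Snhg12 (-0.62 ± 0.09, adjusted p = 0.00516) fell with Smc3 depletion, none passed by limma with Wapal depletion (2 at an unadjusted p below 0.05), and 4 were higher with Wapal than with Smc3 depletion, Snhg3, Snhg12, Snhg6 and Snhg5. Fau, which encodes another small-subunit protein, had a change of 0.06 ± 0.09 with Wapal depletion.

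Of 76 genes of the mitochondrial ribosome, 2 fell with Wapal depletion and 4 fell and 1 rose with Smc3 depletion, with medians of -0.03 and -0.13. Between the depletions 17 were higher and 4 lower with Wapal, 27.6% against 17.4% of all probe sets, for example Mrpl46 (0.49 ± 0.08) and Mrpl38 (-0.56 ± 0.09). Of 43 initiation factor genes, 2 (4.65%) fell with Wapal, and with Smc3 depletion 4 fell and 1 rose (11.6%), Eif4g3 (0.72 ± 0.10), which with Wapal depletion fell (-0.57 ± 0.12). In the lists of regulators, Myc fell with Wapal (-1.43 ± 0.15, adjusted p = 0.00503) and with Smc3 depletion (-1.48 ± 0.13, adjusted p = 7.0e-04), and Mycn rose with Smc3 depletion (0.42 ± 0.10), 1 of 10 genes lower in the first comparison and 1 higher and 1 lower in the second. Of 15 genes of mTORC1 signalling and regulators of TOP translation, 1 (6.67%) fell with Wapal (Tsc2, -0.47 ± 0.11) and 2 (13.3%) with Smc3 depletion (Eif4ebp1, -0.37 ± 0.09, and Mlst8, -0.35 ± 0.09). Between the depletions 2 of the 15 were higher and 6 lower with Wapal, 53.3% against 17.4% of all probe sets. Of 10 genes of p53 and its response, 4 rose with Smc3 depletion (Eda2r, Ccng1, Zmat3 and Sesn2, between 0.52 and 0.64), where 7.62% of all probe sets passed. With Wapal depletion 1 of them fell (Zmat3, -0.49 ± 0.10), where 5.91% passed, and 7 were lower with Wapal than with Smc3 depletion, where 17.4% passed. These lists and the ribosomal protein genes come from the same arrays, and a link between them was not tested.

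**Figure D5:**
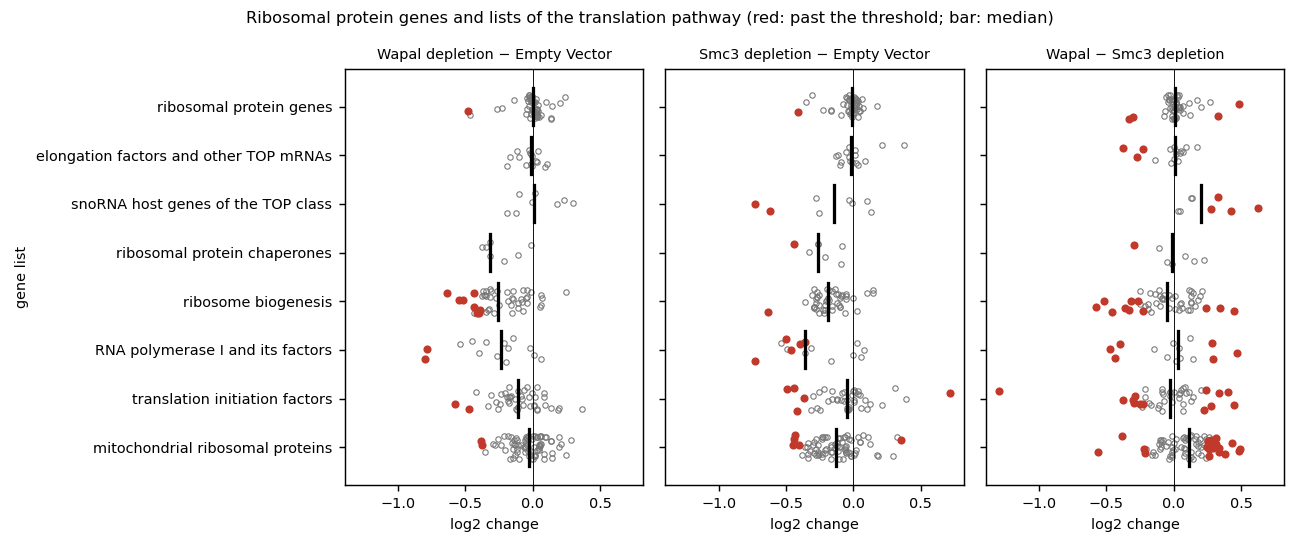
Log2 change of each gene (points, filled red where it passed the threshold) in the ribosomal protein genes and 7 lists of the translation pathway for the 3 main comparisons, with a bar at each list's median. With Wapal and with Smc3 depletion the medians of ribosome biogenesis, RNA polymerase I and the chaperones lie between -0.36 and -0.19. Those of the other TOP mRNAs are -0.01 and -0.02, with several of these genes also near the upper end of the scale. The ribosomal protein genes have medians of 0.00 and -0.01, on probe sets mostly near the upper end of the scale. Their medians are not set against the other lists, since a change hidden by saturation there cannot be told apart from no change.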

How the data were processed

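Total RNA of each of the 10 samples was hybridised to 1 Affymetrix Mouse Genome 430 2.0 array. The authors processed the arrays with RMA and deposited 1 intensity per probe set on a linear scale, for which no version is given in the sources used here. Control probe sets (64) were left out and log2 of the deposited intensity was fitted in limma 3.58.1 (R 4.3.3) with 1 mean per group, on 6 arrays for each target and on all 10 for Wapal against Smc3. P-values were adjusted by Benjamini-Hochberg over 45037 probe sets, with a threshold of 0.05. Symbols came from the platform annotation: 34945 probe sets had 1 symbol, 932 several and 9160 none. Start regions and letters searched came from RefSeq GRCm38.p6. Members, lists and tests were chosen with earlier results of these data known, and the brightness limit of log2 12 after the values were seen. Named were members past the threshold (at most 10 per direction), listed members with known extra roles and paralogs, the 3 brightest and 3 dimmest, the 5 with the widest range of group means, and list genes past the threshold (up to 4 per direction). The fit was tested on simulated data. Alternatives were another scale, 2 further normalizations, a filter at log2 6, an intensity trend, 1 fit of all arrays, a replicate block, a term for the split of the arrays, other probe sets per gene, and each array left out. Other probe sets per gene were the median of all, or the brightest plain one, whose name carries no _x_, _s_ or _a_. Array number limits the precision.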

Additional observations from a re-analysis of the deposited data

Results flagged for a closer look

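Of the 49 members, 4 ribosomal protein genes (8.16%) differed between the effect of Wapal depletion and that of Smc3 depletion by a direct test in limma. Of all probe sets 17.4% did, so the share among members was the lower one. Rpl12 differed by 0.49 on the log2 scale (0.13 ± 0.10 with Wapal and -0.36 ± 0.09 with Smc3 depletion against Empty Vector) and Rps27 by 0.33 (0.02 ± 0.09 and -0.30 ± 0.09). Rpl14 differed by -0.30 (-0.46 ± 0.11 and -0.16 ± 0.11) and Rpl3l, at intensities near the lower end of the scale, by -0.33 (-0.26 ± 0.13 and 0.07 ± 0.13), which was -0.18 and did not pass with log2 of the value plus 16 (adjusted p = 0.0565). Rps25 differed by -0.74 between the shRNAs to Smc3 (-0.59 ± 0.15 with shRNA1 and 0.14 ± 0.15 with shRNA2). It was the only such member (2.04%), where 9.89% of all probe sets differed. With 2 arrays a group, no array was tested as an outlier.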

How the results depend on the processing

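Of 248 values of single members under the alternatives, none changed direction, 70 lost the threshold and 12 gained it; Rpl12 in Wapal against Smc3 depletion kept it in all 19. The cause of the shifts was not tested, apart from the fewer arrays in each fit that leaves one out. The count of members that passed with Wapal depletion (1) was 2 with log2 of the value plus 16, with each array centred on its median, with dim probe sets left out, with all 10 arrays in 1 fit, with the term for the split of the arrays and with plain probe sets only, 3 with the intensity trend and 0 after a further quantile normalization. With Smc3 depletion (1) it was 3 with the value plus 16, with dim probe sets left out and in 1 fit of all arrays, 2 with the trend, and 0 after quantile normalization, with the replicate block and with the median of a gene's probe sets. For Wapal against Smc3 (4) it was 8 with the trend and 2 with the term for the split. For Wapal shRNA1 (0) it was 3 with the trend and 1 with dim probe sets left out or in 1 fit of all arrays. For Wapal shRNA2 (1) it was 3 with the trend, 2 in 1 fit of all arrays and 0 with the median of probe sets. For Smc3 shRNA1 (2) it was 1 after quantile normalization, with the replicate block and with the median of probe sets, and for Smc3 shRNA2 (2) it was 1 after quantile normalization and with the replicate block. Between the Wapal shRNAs (0) it was 3 with the trend. Between the Smc3 shRNAs (1) it was 4 with the trend and 2 with the value plus 16, with dim probe sets left out, in 1 fit of all arrays and with plain probe sets.

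Leaving out 1 array at a time gave 0 to 2 members for Wapal and for Smc3 depletion, 2 to 5 for Wapal against Smc3, 0 for Wapal shRNA1, 0 to 3 for Wapal shRNA2, 0 to 2 for Smc3 shRNA1, 0 to 1 for Smc3 shRNA2, 0 between the Wapal shRNAs and 0 to 1 between the Smc3 shRNAs. The member medians then lay between -0.0049 and 0.011 (Wapal), -0.024 and -0.0021 (Smc3), and 0.0039 and 0.014 (Wapal against Smc3). Medians moved by more than the spread between replicates (0.011) when each array was centred on its median, to -0.031, -0.025 and -0.013 in the same order, and with plain probe sets, to -0.045, -0.098 and 0.021. The plain setting changed or dropped the probe set of most bright members. Over the 241 pathway genes, 17 passed with Wapal depletion, and 43 did with the value plus 16, 5 after quantile normalization, 28 after centring, 37 with dim probe sets left out, 68 with the trend, 36 in 1 fit of all arrays, 8 with the replicate block, and 3 to 6 without 1 array. With Smc3 depletion 26 passed, and 61 did with the value plus 16, 40 with dim probe sets left out and in 1 fit of all arrays, 78 with the trend, and 7 to 23 without 1 array. For Wapal against Smc3 73 passed, and 114 did with the trend and 39 to 77 without 1 array. In the main fits 5.91%, 7.62% and 17.4% of all probe sets passed in the same order. Under the alternatives that share was not counted. The shifts in counts of members and pathway genes are thus given without it and are not read as particular to these genes. Bright members passed under the trend in 6 comparisons, 1 to 3 in each. Besides the counts given above for Smc3 depletion and for each shRNA to Smc3, the replicate block lost Rpl3l between the depletions, leaving 3 members. Same-numbered arrays did not deviate together (correlations between -0.16 and 0.06 over 10 pairs of groups), so the numbers were not taken as pairs. With Wapal depletion the median of a gene's probe sets also gave 1 member, Rpl14 in place of Rpl7l1. The number of arrays limits the precision, and which bright members pass also depends on the prior variance.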

Other observations

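Probe sets with several symbols, 1 of them a ribosomal protein, numbered 110, and 80 of them reached the brightness limit of log2 12. No gene is named from them. With Wapal depletion 3 fell and none rose, between -0.88 and -0.59 on the log2 scale. With Smc3 depletion 1 fell, by 0.56, and between the depletions 3 were higher and 3 lower with Wapal. These were 2.73%, 0.91% and 5.45% of the 110, against 5.91%, 7.62% and 17.4% of all probe sets. The median changes of the 110 were 0.01, -0.01 and 0.02. The probe sets that passed had mean log2 intensities between 5.15 and 9.75, all below the brightness limit.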
